A study of Mus musculus with 12 samples.

Results

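The small nucleolar RNAs, their host genes and the precursor of ribosomal RNA were examined in striatum and cortex of Huntington's disease (HD) mice. The members were all rows whose symbol begins with Snora, Snord, Scarna or Snhg followed by a digit, plus Rn45s, which made 137 of the 23282 rows. They were 36 Snora rows, 76 Snord rows, 9 Scarna rows, 15 Snhg rows and Rn45s. The set was chosen because Snora81 and Rn45s were higher in the HD libraries, so that for every member the comparison of HD with wild type (WT) is a description without a test.

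Small nucleolar RNAs guide chemical changes of other RNAs, mostly of ribosomal RNA. C/D box RNAs (Snord) guide 2′-O-methylation with the methyltransferase fibrillarin, H/ACA box RNAs (Snora) guide the conversion of uridine to pseudouridine with dyskerin, and the small Cajal body RNAs (Scarna) act on spliceosomal RNAs. Most are cut out of introns of a host transcript, and Snhg genes are hosts that are known mainly for this role. Rn45s is the long precursor made by RNA polymerase I, from which the 18S, 5.8S and 28S ribosomal RNAs are processed. Its sequence includes those of these mature RNAs, so counts on the Rn45s row cannot be assigned to precursor or mature forms. Mature forms of these RNAs end without a poly(A) tail, whereas spliced Snhg transcripts are polyadenylated.

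Total RNA of brain tissue was made into 12 QuantSeq libraries, a kit that primes on poly(A) stretches and reads the 3′ ends of transcripts. The HD mice were R6/2, a line that carries a transgene with an expanded CAG repeat from the human huntingtin gene, and the WT mice were their littermates. HD libraries came from 13-week-old mice after symptom onset (postHD) and from 8-week-old mice before onset (preHD), with 2 libraries each from striatum (STR) and cortex (CTX). WT libraries came from the same ages and regions with 1 library each. Levels are given as CPM, the counts divided by the library size in 1e+06 counts after scaling by the trimmed mean of M-values (TMM), and fold changes are on the log2 scale.

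The libraries held 8814386 to 12091201 counts. Of the 137 rows, 110 had at least 1 count and 27 were at 0 in all 12 libraries. Among the 121 small RNA rows (Snora, Snord and Scarna) 94 had counts, 46 of them had between 1 and 9 counts over all libraries together, and only 7 reached 100. A filter on low counts kept 24 members in the fit of the 8 HD libraries and 32 in the fit of all 12, and all 15 Snhg genes passed in both. Members that passed only through a group where they were high had to differ between groups, so counts over them describe the tested rows and not the whole set.

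The sequences of 8 small RNAs are shown because the results below turn on them. They were taken from the GENCODE M21 transcripts on GRCm38, the assembly that mm10 also names, and capitals mark a C box (ATGATGA or GTGATGA in the first 25 bases), the last CTGA within 15 bases of the 3′ end of a C/D RNA (the D box), an ACA within 6 bases of the 3′ end of an H/ACA RNA, or a run of at least 6 A.
Snora81 (chr16:23110756-23110933, plus strand, within Eif4a2): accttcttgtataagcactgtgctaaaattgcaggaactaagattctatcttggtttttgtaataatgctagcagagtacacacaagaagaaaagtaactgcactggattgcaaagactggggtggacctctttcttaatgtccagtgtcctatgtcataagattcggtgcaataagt
Snord2 (chr16:23108953-23109021, plus strand, within Eif4a2): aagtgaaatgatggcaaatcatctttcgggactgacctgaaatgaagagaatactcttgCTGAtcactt
Snord89 (chr1:39548745-39548854, minus strand, within Gm15832): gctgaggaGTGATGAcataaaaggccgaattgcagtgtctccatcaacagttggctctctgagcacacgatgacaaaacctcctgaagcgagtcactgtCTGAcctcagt
Snord49b (chr11:62603079-62603150, plus strand, within 2410006H16Rik): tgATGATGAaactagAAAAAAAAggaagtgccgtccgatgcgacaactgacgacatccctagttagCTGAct
Snora30 (chr7:127527874-127528003, plus strand, within Srcap): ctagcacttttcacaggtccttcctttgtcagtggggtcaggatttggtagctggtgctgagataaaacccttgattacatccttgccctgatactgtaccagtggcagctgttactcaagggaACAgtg
Snora21 (chr11:97781639-97781775, minus strand, within Rpl23): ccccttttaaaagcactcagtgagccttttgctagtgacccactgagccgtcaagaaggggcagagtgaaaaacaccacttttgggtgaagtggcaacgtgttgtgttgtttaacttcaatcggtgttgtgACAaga
Snora35 (chrX:146994381-146994508, plus strand, within Htr2c): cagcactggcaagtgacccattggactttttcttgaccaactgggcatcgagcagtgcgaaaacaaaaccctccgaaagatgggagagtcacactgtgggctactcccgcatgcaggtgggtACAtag
Snord104 (chr11:106500993-106501062, plus strand, no host on the same strand): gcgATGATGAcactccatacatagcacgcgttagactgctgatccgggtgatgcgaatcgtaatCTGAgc

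Over the annotated members, 44 of 72 Snord sequences (61.1%) held the C box as searched, 69 of 72 (95.8%) the D box and 34 of 36 Snora sequences (94.4%) the terminal ACA. Snora81 is among the Snora entries without it. An A run of at least 6 was present in 5 of 117 small RNA sequences (4.27%), among them Snord49b with a run of 8. The 5 had a median of 34 counts over the 12 libraries and 1 of them reached 100 counts, whereas the other 112 had a median of 7 and 6 reached 100. GENCODE placed 118 of the 119 small RNA symbols, 112 of these lay within another gene on the same strand, and for 52 an exon of that gene overlapped the small RNA in at least 1 transcript. For those, counts of the small RNA and of the host exon cannot be told apart.

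Rn45s was the most abundant member in every library. In HD striatum it took 14.4% and 15.2% of all counts at 13 weeks and 14.4% and 13.7% at 8 weeks. In HD cortex it took 13.0% and 10.5% at 13 weeks and 13.3% and 13.8% at 8 weeks. In WT it took 5.62% of postWT-STR, 5.15% of postWT-CTX, 4.32% of preWT-STR and 5.16% of preWT-CTX. All 8 HD libraries therefore lay above all 4 WT libraries, with mean shares of 13.5% ± 1.40 (SD, n = 8) and 5.06% ± 0.542 (SD, n = 4). The fitted log2 difference between HD and WT was 1.22 (SE 0.19) at 13 weeks and 1.67 (SE 0.19) at 8 weeks. Within regions the ratio of mean CPM was 2.49 in striatum and 2.15 in cortex at 13 weeks, and 3.62 and 2.86 at 8 weeks.

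Snora81, an H/ACA RNA encoded in Eif4a2, was the most abundant small RNA with 1375 counts over all libraries. Its counts in HD striatum were 193 and 190 at 13 weeks and 186 and 139 at 8 weeks. In HD cortex they were 202 and 157 at 13 weeks and 92 and 109 at 8 weeks. WT libraries held 33 counts in postWT-STR, 36 in postWT-CTX, 19 in preWT-STR and 19 in preWT-CTX. The lowest HD library (9.64 CPM, in preHD-CTX) was therefore above the highest WT library (3.15 CPM). The fitted log2 difference between HD and WT was 2.47 (SE 0.29) at 13 weeks and 3.003 (SE 0.31) at 8 weeks. With Rn45s taken out of the library sizes and the fit, the values for Snora81 were 2.46 and 2.99.

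**Figure D1:**
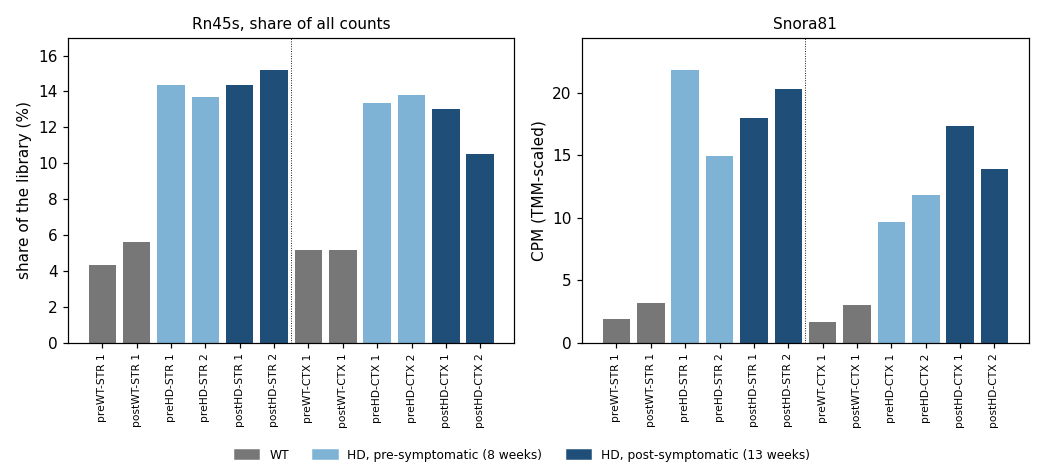
Share of all counts taken by Rn45s (left, in percent) and TMM-scaled CPM of Snora81 (right), with 1 bar for each of the 12 libraries and striatum left of the dotted line. The HD bars lie between 10.5% and 15.2% for Rn45s and from 9.64 CPM upward for Snora81, all above the WT bars.

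Eif4a2, which encodes a translation initiation helicase and hosts both Snora81 and Snord2, did not show the same difference. Its HD minus WT log2 difference was 0.05 at 13 weeks (adjusted p = 0.911, edgeR quasi-likelihood test with Benjamini-Hochberg adjustment) and -0.39 at 8 weeks (adjusted p = 0.371). Snora81 counts amounted to between 0.62% and 11.9% of the Eif4a2 counts of the same library. Of 14 annotated Eif4a2 transcripts that span Snora81, 2 have an exon over it. Snord2, from the same host, had 126 counts in postHD-STR replicate 1 and 0 to 13 in every other library.

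Across both ages, 5 of the 32 tested members were higher in every HD library than in every WT library of the same region and none was lower. Of all 14706 genes tested, 5.71% were higher and 3.63% were lower by this rule. Because the members were chosen on this contrast, nothing is read from that count. The 5 were Rn45s, Snora81, Snord89, Snhg9 and Snhg14, and leaving out postHD-STR replicate 1 left 5.

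Snord89, a C/D RNA, stood at 11.6 and 10.6 CPM in postHD-STR, 8.16 and 5.03 in postHD-CTX, 18.7 and 9.90 in preHD-STR and 6.08 and 6.85 in preHD-CTX. Its WT levels were between 2.41 and 4.01 CPM. Striatal HD levels were thus the highest, and in each region the lowest HD library was above the highest WT library. Snhg14, the long transcript of the Prader-Willi region that hosts the Snord116 cluster, was at 10.2 to 24.5 CPM in HD and 5.73 to 10.01 CPM in WT. Snhg9 was at 6.31 to 12.5 CPM in HD and 3.62 to 7.03 CPM in WT, so that the pooled ranges met although the libraries of each region did not. In striatum this rested on the scaling. There preHD-STR replicate 2 was at 7.11 CPM with 66 counts and preWT-STR at 7.03 CPM with 70 counts.

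Read separately by age, where each region has 1 WT library, 22 tested members were above WT in both regions at 13 weeks and none was below, against 21.4% of all genes above and 22.6% below. At 8 weeks 9 were above and 1, Snhg5, was below, against 15.4% and 15.1% of all genes. Because the members were chosen on this contrast, nothing is read from these counts either. Of the 22, Snora21, Scarna10, Scarna2, Snord45c and Snord55 held at most 3 counts in any WT library. They passed the filter on low counts through HD libraries, as did Snord49b, which held at most 6 counts in any WT library. Fitted log2 differences of Snhg7 were 1.49 (SE 0.39) at 13 weeks and 0.17 (SE 0.39) at 8 weeks. For Snhg8 they were 0.43 (SE 0.32) and -0.98 (SE 0.31). At 8 weeks Snhg8 was at 50.0 and 34.5 CPM in preHD-STR and at 136 CPM in preWT-STR, whereas cortex held 40.2 and 42.3 CPM in HD and 42.2 CPM in WT. The lower value of HD at this age was thus seen in striatum and not in cortex.

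Several small RNAs below these levels were chosen for description after their values were seen. Snora21, encoded in the ribosomal protein gene Rpl23, had 14, 21, 9 and 23 counts in the postHD libraries and 5, 11, 3 and 0 in the preHD libraries. It was at 0 in all 4 WT libraries. A floor of 3 counts over the WT libraries together corresponds to 0.0682 CPM, and the pooled HD level of 1.08 CPM was 15.9-fold above this floor. The floor covers counting error in WT only and not the spread between libraries, so this is no lower bound on the difference. Snora21 passed the filter on low counts only through HD libraries. Rpl23 itself differed between HD and WT by 0.04 at 13 weeks (adjusted p = 0.906) and by -0.35 at 8 weeks (adjusted p = 0.246, both edgeR).

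Snord49b was at 85, 20, 40 and 1 counts in the postHD libraries, 62, 54, 56 and 52 in the preHD libraries and 0 to 6 in WT. It was therefore even across the pre-symptomatic HD libraries and uneven after onset, and postHD-CTX replicate 2 with 1 count fell in the WT range. Snora30, encoded in the chromatin remodeller gene Srcap, had 12 to 23 counts in 3 preHD libraries and 0 in the other, 36 to 62 in postHD and 1 to 30 in WT. Srcap was higher in HD than in WT, by 2.34 at 13 weeks (SE 0.30, adjusted p = 0.00176, edgeR) and by 1.97 at 8 weeks (SE 0.29, adjusted p = 0.00664). Srcap levels were 10.2 to 15.7 CPM in HD and 1.78 to 4.32 CPM in WT. Each WT age had 1 library per region, and the call of Srcap at 8 weeks was lost without preWT-STR.

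Summed over all small RNA rows, HD libraries held 31.5 to 99.6 CPM and WT libraries 13.8 to 21.1 CPM. Without Snora81 the sums were 21.9 to 81.6 CPM in HD and 12.2 to 17.9 CPM in WT, so that the ranges still did not meet. Over both regions together this separation rested on Snord89 and Snord49b. In the lowest HD sum, preHD-CTX replicate 1, they held 6.08 and 5.87 CPM. In the highest WT sum, postWT-STR, they held 4.01 and 0.572 CPM. Without these rows the ranges met over both regions together and, narrowly, within cortex, but not within striatum. The sums thus do not show a difference of the small RNAs as a class. The number of small RNA rows with at least 1 count did overlap, with 24 to 62 rows in HD and 27 to 36 in WT. The sums of HD and WT were thus separate while the numbers of rows were not. The library postHD-STR replicate 1 stood apart with 62 rows, where no other exceeded 44, and with 44 counts of Snord12 and 43 of Snord68, which reached no more than 7 elsewhere. Without it the HD sums without Snora81 were 21.9 to 49.2 CPM.

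**Figure D2:**
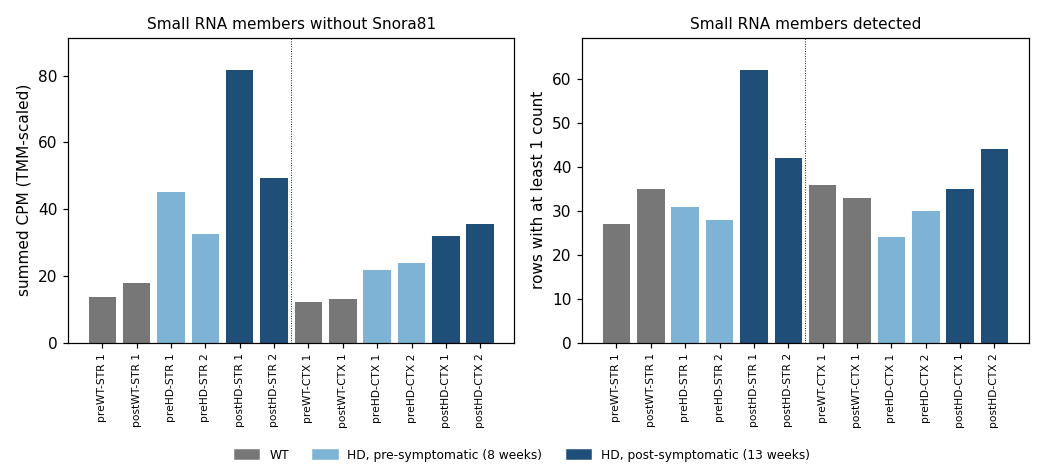
Summed TMM-scaled CPM of the Snora, Snord and Scarna rows without Snora81 (left) and number of those rows with at least 1 count (right) in each library. The sums of the HD bars begin at 21.9 CPM and the WT bars end at 17.9 CPM, whereas the numbers of rows overlap.

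Other structural RNAs read alongside showed wider HD ranges and no clean difference, at low counts. The most in any library was 38 (Rnu11), and Terc, Rnu6 and Rnu73b had none. Vaultrc5 was higher in HD in cortex (0.618 to 1.36 against 0.339 to 0.425 CPM) but overlapped in striatum. The 9 listed in the files (Rpph1, Rmrp, Rnu11, Rnu12, Vaultrc5 and others) summed to 1.15 to 8.18 CPM in HD and 2.01 to 2.96 CPM in WT. Nuclear-retained transcripts (Malat1, Meg3, Rian and 3 others) summed to 9339 to 20160 CPM in HD striatum and 10050 to 10606 CPM in WT striatum. In cortex they summed to 8213 to 9078 CPM and 4153 to 6105 CPM, so that the cortical sums were separate and the striatal ones were not. Malat1 and Meg3 made up most of the sum, with means of 5102 and 4484 of 9994 CPM. In cortex Malat1 and Kcnq1ot1 were higher in every HD library, Rian was lower (123 to 293 against 320 to 351 CPM) and the others overlapped. The labels give no preparation batch, so that genotype and any batch that follows it cannot be told apart.

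The libraries also differed in markers of region and cell type. Striatal neuron markers (9 genes, among them Drd1, Ppp1r1b and Penk) summed to 7114 and 7737 CPM in WT striatum and to 1386 to 7335 CPM in HD striatum. Thalamic and choroid plexus markers (Ttr, Tcf7l2 and Prkcd) summed to 1662 CPM in preHD-STR replicate 2 and 2989 CPM in postHD-CTX replicate 2, against 21.4 to 170 CPM in the other libraries. Oligodendrocyte markers (6 genes) reached 19156 CPM in preHD-STR replicate 2 and 2174 to 6785 CPM elsewhere. Cortical neuron markers (7 genes) summed to 168 CPM in preWT-STR and 176 CPM in preHD-STR replicate 2. The other striatal libraries held 21.4 to 62.3 CPM of them. The part of these differences in the results was not tested, and in bulk tissue fewer cells of a type and less RNA per cell cannot be told apart.

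The change from before to after symptom onset in HD mice was not the contrast that chose the members, although it uses the same HD libraries. After onset 3 of the 24 tested members rose and none fell, against 1.93% of all 13944 genes that rose and 4.53% that fell. All 3 were Snhg host genes. Over the 15 Snhg genes, 14 had a log2 fold change above 0 with a median of 0.59, whereas 50.3% of all genes lay above 0 with a median of 0.00.

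Snhg8, which hosts Snora24, was at 111 and 96.9 CPM in postHD-STR and at 97.8 and 107 CPM in postHD-CTX. Before onset it was at 50.0 and 34.5 CPM in striatum and at 40.2 and 42.3 CPM in cortex. All 4 postHD libraries were above all 4 preHD libraries, 2.46-fold in striatum and 2.48-fold in cortex by group means. The fitted log2 fold change was 1.32 (SE 0.13, adjusted p = 0.00153, edgeR quasi-likelihood test), and the adjusted p was between 9.97e-05 and 0.0159 when each library was left out in turn. In WT, Snhg8 was at 97.6 and 60.9 CPM at 13 weeks and at 136 and 42.2 CPM at 8 weeks. These levels overlapped those of both HD stages, and preHD-STR replicate 2 and preHD-CTX replicate 1 were below all 4 WT libraries. Snora24 itself had only 14 counts over the 12 libraries.

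Snhg7 was at 19.9 and 14.9 CPM in postHD-STR, 14.2 and 20.05 in postHD-CTX, 5.86 and 4.63 in preHD-STR and 9.22 and 2.94 in preHD-CTX. Its log2 fold change was 1.62 (SE 0.33, adjusted p = 0.0188), and it missed the threshold in 4 of the 8 fits that left out 1 library, with adjusted p up to 0.0830. Snhg1, host of a series of C/D RNAs that include Snord22, was at 15.4 to 20.9 CPM in postHD and 6.29 to 17.9 CPM in preHD. Its log2 fold change was 0.89 (SE 0.23, adjusted p = 0.0482), and it missed the threshold in 7 of the 8 fits, with adjusted p up to 0.168. Postsymptomatic libraries were above presymptomatic ones in each region for both genes, but for Snhg1 preHD-STR replicate 1 at 17.9 CPM was above the postHD cortex.

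**Figure D3:**
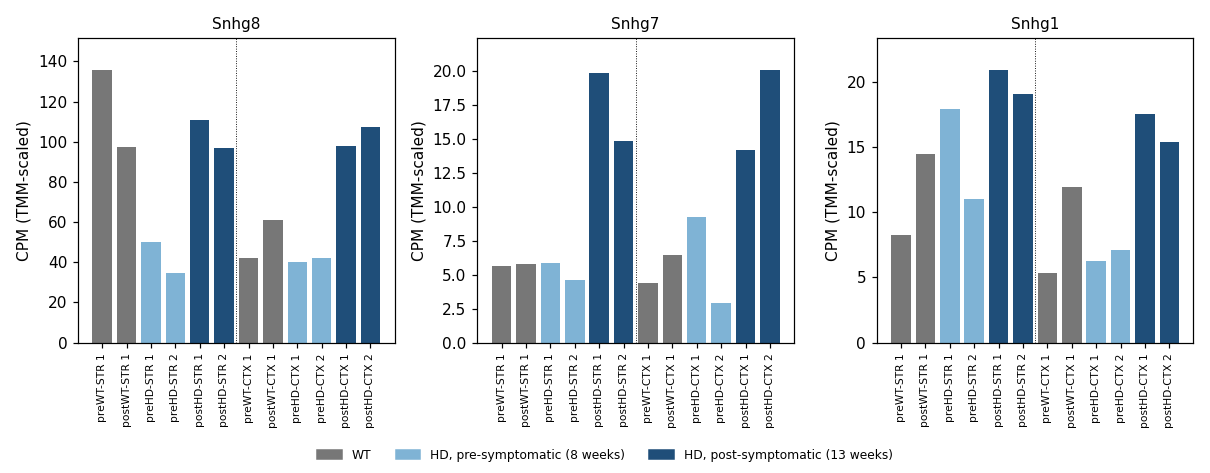
TMM-scaled CPM of Snhg8, Snhg7 and Snhg1 in each of the 12 libraries, with striatum left of the dotted line in each panel. The 4 postHD bars of Snhg8 stand between 96.9 and 111 CPM and the 4 preHD bars between 34.5 and 50.0 CPM, while WT bars range from 42.2 to 136 CPM.

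Among the members that did not pass the threshold, Snhg20 had a log2 fold change of 0.73 (adjusted p = 0.0625), Snhg12 of 0.99 (adjusted p = 0.109) and Snhg3 of 0.67 (adjusted p = 0.167). Both Snhg20 and Snhg12 passed when the replicate number was added as a term, and in each HD group that number followed the level of Xist, which was 0.21 to 6.81 CPM in replicate 1 and 112 to 179 CPM in replicate 2. Snhg4 was at 0.56 (adjusted p = 0.163) and Snhg6 at 0.59 (adjusted p = 0.356). Snhg11, the most abundant host gene at 839 to 1518 CPM in HD, was at 0.03 (SE 0.19) and Snhg14 at -0.05 (SE 0.23). Without Snhg11 the host genes summed to 291 to 326 CPM in postHD, 144 to 209 CPM in preHD and 147 to 305 CPM in WT, so that the HD stages were separate and WT lay across both. With the criterion of no overlap within either region, 8 of the 24 tested members were higher after onset and none was lower, against 9.35% and 11.3% of all genes. Snora21 was among the 8 but passed the filter on low counts through the postHD libraries, so nothing is read from its place there.

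Of the 8 small RNAs tested with stage, 0 were called by edgeR, 2 had an unadjusted p under 0.05 and 1, Snora30, was called by DESeq2. Of all genes tested with stage 6.45% were called by edgeR, 22.6% had an unadjusted p under 0.05 and 12% were called by DESeq2, so that these counts were near the background. Snora30 had a log2 fold change of 1.95 (SE 0.64, adjusted p = 0.106) and Snora21 of 1.82 (SE 0.80), and for both the stages did not overlap within either region. Snora21 was 1 of the 2 with an unadjusted p under 0.05. Snora21 and Scarna17 passed the filter on low counts through the postHD libraries, so their changes are given without a test. Scarna rows summed to 4.12 to 6.95 CPM after onset, 0.43 to 1.87 CPM before onset and 0.20 to 1.44 CPM in WT. Most Scarna rows were below the filter, and the fitted change of Scarna17 was 1.04 (SE 0.72).

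Rn45s and Snora81, in contrast to their difference between genotypes, did not pass the test with stage. Rn45s had a log2 fold change of -0.27 (SE 0.14, adjusted p = 0.285) and Snora81 of 0.31 (SE 0.19, adjusted p = 0.384). An exact two-sided permutation test of stage within region gave mean log2 differences of -0.29 for Rn45s (p = 0.111) and 0.31 for Snora81 (p = 0.222). Its 36 arrangements allow no p below 0.0556. It permuted striatum and cortex independently, and the labels do not say whether libraries of both regions came from the same mice. If they did, fewer arrangements would apply.

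In WT mice, with 1 library for each age and region, no member passed the test between 8 and 13 weeks, which does not show that levels were equal. Among 32 tested members 0 passed the edgeR test and 0 passed DESeq2, against 0.0136% of all genes called by edgeR. At an unadjusted p under 0.05 there were 2, Snhg1 and Snora81, against 1.82% of all genes. The fitted WT change of Snhg8 was -0.10 (SE 0.36), that of Snhg7 0.29 (SE 0.44), that of Snhg1 0.99 (SE 0.32) and that of Snora81 0.82 (SE 0.34). The HD values beside these last were 0.89 for Snhg1 and 0.31 for Snora81. Xist, the RNA of the inactive X chromosome, was at 138 and 70.1 CPM in the WT libraries of 13 weeks and at 1.81 and 0.43 CPM in those of 8 weeks, so that WT age cannot be told apart from sex.

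The test of whether the HD change differed from the WT change called none of the 32 members, by edgeR or by DESeq2. At an unadjusted p under 0.05 there were 5, against 8.92% of all genes, and 0.116% of all genes were called. Scarna10 and Scarna13 were among the 5 but reached 10 counts only in postHD libraries, so nothing is read from them. The difference was 1.41 (SE 0.45, adjusted p = 0.330) for Snhg8, 1.32 (SE 0.53, adjusted p = 0.468) for Snhg7 and -0.13 (SE 0.39, adjusted p = 0.969) for Snhg1. A rise of the host genes that belongs to HD mice and not to age was therefore not shown by this test. The WT ages also differed in Xist, so the test cannot tell age apart from sex in its WT part.

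**Figure D4:**
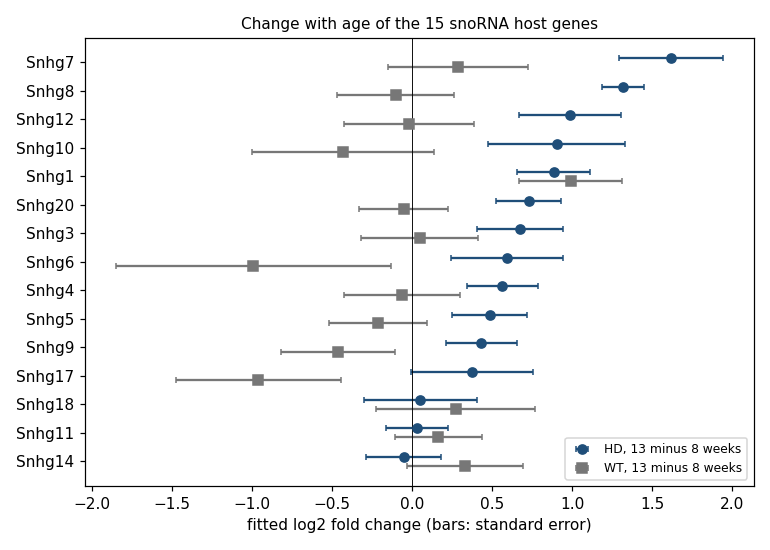
Fitted log2 fold change from 8 to 13 weeks of the 15 Snhg genes in HD (circles) and WT (squares), with bars for the standard error. In HD 14 of 15 lie above 0, led by Snhg7 at 1.62 and Snhg8 at 1.32, and in WT 6 of 15 lie above 0. The WT ages also differed in Xist.

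Between regions 4 of 32 tested members were higher in striatum than in cortex and none was lower, against 8.51% of all genes higher and 12.1% lower in striatum. Snora35 was among the 4 but passed the filter on low counts only through striatal libraries, so that its difference is given without a test and 3 members are left. Snora35, an H/ACA RNA that lies in the serotonin receptor gene Htr2c, had 19, 6, 9 and 5 counts in the HD striatum and 2 and 5 in the WT striatum. In cortex it had 1 count in preHD-CTX replicate 2 and 0 in the other 5 libraries. Every striatal library was therefore above every cortical one, on 47 counts in all. Htr2c itself was higher in striatum by 2.78 (SE 0.37, adjusted p = 0.000587), at 26.7 to 83.0 CPM against 4.23 to 18.6 CPM. Snora35 fell below the filter on low counts when postHD-STR replicate 1 or preHD-STR replicate 1 was left out.

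Snord104, which has no annotated host on its strand, was at 6.25 and 6.84 CPM in postHD-STR, 4.92 and 4.52 in preHD-STR and 4.196 and 4.82 in WT striatum. In cortex it was at 4.04 and 3.18 CPM in postHD, 2.20 and 3.48 in preHD and 1.78 in both WT libraries. The lowest striatal level was above the highest cortical level, and the log2 difference was 0.97 (SE 0.24, adjusted p = 0.0117). Snhg5 was at 10.3 to 15.3 CPM in striatum and 5.34 to 12.1 CPM in cortex, with a log2 difference of 0.72 (SE 0.18, adjusted p = 0.0128). Snhg1 was at 8.24 to 20.9 CPM in striatum and 5.36 to 17.5 CPM in cortex, with a difference of 0.60 (SE 0.19, adjusted p = 0.0371) that missed the threshold in 9 of 12 fits that left out 1 library.

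**Figure D5:**
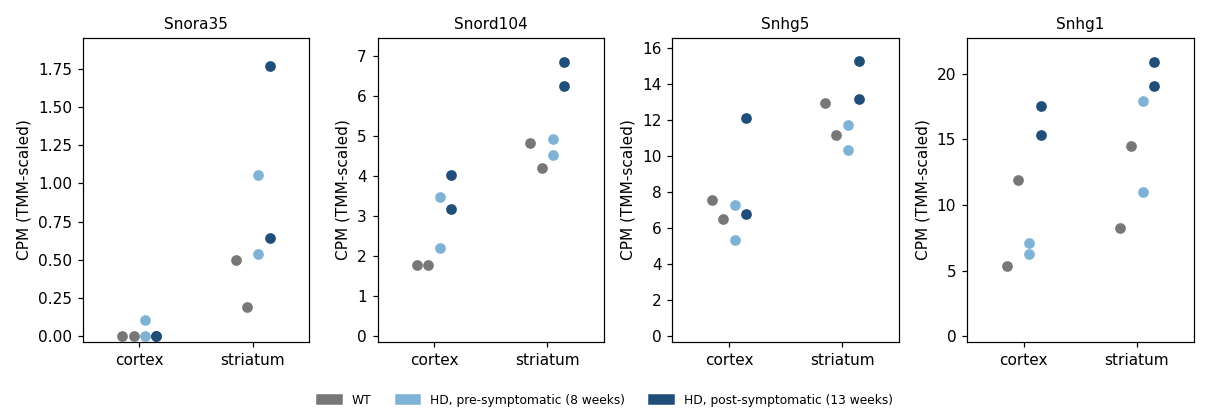
TMM-scaled CPM of Snora35, Snord104, Snhg5 and Snhg1 in cortex and striatum, with 1 point for each library. Striatal points of Snora35 and Snord104 lie above all cortical points, with Snord104 at 4.196 to 6.84 CPM in striatum and 1.78 to 4.04 CPM in cortex.

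Neither Rn45s nor Snora81 passed the test between regions. Rn45s had a log2 difference of 0.03 (SE 0.12, adjusted p = 0.891), and Snora81 of 0.43 (SE 0.18, adjusted p = 0.111) although its striatal libraries were above the cortical ones of the same genotype and age. Snord89 was at 0.66 (SE 0.26, adjusted p = 0.0947) and Snhg18 at 0.85 (SE 0.29, adjusted p = 0.0522). For the remaining tested members the adjusted p was at least 0.161. By the criterion of no overlap within each genotype and age, 6 members were higher in striatum and none was lower, against 7.36% and 11.2% of all genes, and the 6 were Snord104, Snhg5, Snhg1, Snora81, Snhg18 and Snora35.

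The proteins that work with these RNAs were read from lists of 58 genes, all of which passed the filter. They comprise the core proteins of the RNA-protein particles (8 genes), assembly and Cajal body factors (14), RNA polymerase I factors (15) and processing factors of ribosomal RNA (21). After onset in HD mice 3 of the 58 rose and none fell, against 6.45% of all genes called in either direction. They were Fbl, the methyltransferase of the C/D particles (0.72, SE 0.16, adjusted p = 0.0272), the helicase Ddx21 (0.49, SE 0.11, adjusted p = 0.0327) and the small subunit processing factor Nop14 (0.49, SE 0.12, adjusted p = 0.0442). Without either postHD-STR replicate 1, postHD-CTX replicate 1, postHD-CTX replicate 2, preHD-CTX replicate 1 or preHD-CTX replicate 2 none of the 58 passed, and without postHD-STR replicate 2 only Fbl did. Of the RNA polymerase I factors 0 of 15 were called by edgeR, 3 had an unadjusted p under 0.05, and DESeq2 called 1, the upstream binding factor Ubtf (edgeR log2 fold change -0.45, adjusted p = 0.0603).

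Between HD and WT at 13 weeks, 3 of the 58 were higher in HD and 1 was lower, against 7.36% of all genes in either direction. Higher were Ddx21 (0.96, SE 0.16, adjusted p = 0.00474), nucleolin (Ncl, 0.76, SE 0.14, adjusted p = 0.00862) and Nop14 (0.72, SE 0.16, adjusted p = 0.0190), and lower was Nhp2 of the H/ACA particles (-0.76, SE 0.17, adjusted p = 0.0192). At 8 weeks only Ncl was called, with 0.73 (SE 0.14, adjusted p = 0.0214), against 2.1% of all genes. None of these calls held when a WT library of the same age was left out, and that of Ncl at 8 weeks was also lost without either preHD-CTX library. Apart from Nhp2 at 13 weeks, edgeR called none of the 8 core proteins at either age, whereas DESeq2 also called Fbl at 13 weeks and Nop56 at 8 weeks. Between regions Npm1 (0.38, SE 0.11, adjusted p = 0.0260) and Xrn2 (0.40, SE 0.13, adjusted p = 0.0456) were higher in striatum, and the other 56 were not called, against 20.6% of all genes called in either direction. The calls of Npm1 and Xrn2 were both lost without postHD-STR replicate 1, postHD-CTX replicate 2, preHD-STR replicate 1 or either preHD-CTX library, and without postWT-STR or postWT-CTX, and that of Xrn2 also without postHD-CTX replicate 1 or either WT library of 8 weeks. Of the 15 RNA polymerase I factors edgeR called 0 between HD and WT at either age, with 3 at an unadjusted p under 0.05 at each age, against 22.3% of all genes at 13 weeks and 13.9% at 8 weeks. DESeq2, which called 12.8% and 4.87% of all genes at these ages, called Ubtf and Taf1c at 13 weeks (edgeR log2 differences -0.46, adjusted p = 0.0825, and -1.08, adjusted p = 0.0581) and 0 at 8 weeks.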

How the data were processed

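The deposited files gave 1 column of whole-number read counts per gene for each of 12 libraries and no normalized values. Per the labels the authors made QuantSeq libraries from total RNA, and the submitters' processing notes name Bowtie2, bedtools and mm10. Versions, annotation, strand setting and treatment of reads with several positions are not given in the sources used here, so that counts of small RNAs, of overlapping host exons and of repeated sequence are uncertain. The totals over all 23282 rows were 8814386 to 12091201 counts, and the share of Rn45s refers to these. In the fits library sizes were summed over the genes that passed the filter.

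The members and lists were chosen with earlier results of these data known. Named genes were Rn45s, Snora81, members called in a tested comparison, the 10 members with the highest mean CPM, up to 6 per direction that did not overlap between HD and WT at a mean of at least 5 CPM, the hosts of these, up to 3 called machinery genes per direction and up to 4 genes of the other lists. Other named members (among them Snora21, Snora24, Snora30, Snord2, Snord12, Snord49b, Snord68, Scarna17 and Snhg18) and the factors Ubtf, Taf1c and Nop56 fall outside this rule and were named after their values were seen. The same holds for the host genes of such members, among them Srcap and Rpl23.

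Tests used edgeR 4.0.16 in R 4.3.3, with TMM scaling, the quasi-likelihood method with robust moderation, and genes kept by filterByExpr (smallest count 10). P-values were adjusted by Benjamini-Hochberg over every gene tested, at a threshold of 0.05. Stage was fitted on the 8 HD samples alone and all other comparisons on the 12 libraries by genotype and age, and both models adjusted for region. The spread of the single WT libraries was thus taken from the fit. Replicates were not stated to be separate animals, nor striatum and cortex to come from separate mice, so p-values measure the spread between these samples. Alternatives were DESeq2 1.42.0, upper-quartile scaling, no filter, Rn45s left out, a replicate block and leaving out each library. Leaving out WT libraries, and leaving out libraries from the counts without overlap, were chosen after seeing the data. Counts were also simulated from the mean levels and sizes of these libraries, with 200 genes changed by 1.5 (log2). Of these, edgeR recovered 187 with stage (13847 genes), 172 in HD against WT at 13 weeks (14207 genes) and 191 between regions (14185 genes). False calls were 4.10%, 2.82% and 5.91% of its calls, and 8.72%, 11.0% and 12.7% with DESeq2. All genes were given the same spread and no other differences between libraries, so this recovery does not measure power in the real libraries. A level at 0 was bounded with a floor of 3 counts, which covers counting error only. Members were placed with GENCODE M21. Rn45s was not placed.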

Additional observations from a re-analysis of the deposited data

How the results depend on the processing

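No called value changed sign under any alternative, but the striatum minus cortex value of Rn45s (0.03, not called) was -0.02 without postHD-STR replicate 2 and -0.04 without postHD-CTX replicate 2. After onset in HD, the 3 called members became 6 with DESeq2, 5 with no filter, and 5 with a replicate block, and the count ran from 1 to 6 when 1 library was left out. It was 1 (Snhg8) without postHD-STR replicate 1, postHD-CTX replicate 1, postHD-CTX replicate 2 or preHD-CTX replicate 2, and 6 without preHD-STR replicate 1. Between regions the 4 called members, Snora35 included, were 2 to 5 with 1 library left out, with 2 (Snhg5 and Snord104) without postHD-STR replicate 1. The HD minus WT value of Rn45s at 8 weeks ran from 1.44 without preWT-STR to 1.94 without preWT-CTX. Called genes of the 58 machinery genes after onset were 5 with DESeq2 and 0 to 4 with 1 library left out. Between regions they were 6 with DESeq2, 5 with upper-quartile scaling, 5 with Rn45s left out, 1 with the replicate block and 0 to 6 with 1 library left out. Between HD and WT at 13 weeks they were 9 with DESeq2, 7 with the block and 0 to 9 with 1 library left out (9 without preHD-STR replicate 2), and at 8 weeks 4, 2 and 0 to 4. The cause was not tested.

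Xist was low in replicate 1 and high in replicate 2 of each HD group, so that the block also carries this difference. Nothing in the labels pairs the HD samples by number, and same-numbered deviations correlated at 0.167 and 0.0995 between regions of 1 stage but at 0.185 and 0.0336 between stages of 1 region. The block changed the calls of members only by adding Snhg12 and Snhg20 with stage and Snhg18 between regions. Over all genes DESeq2 gave 1680 against 900 calls with stage, 1813 against 1082 for HD against WT at 13 weeks, 674 against 309 at 8 weeks, 11 against 2 with WT age and 231 against 17 for the difference of changes. Leaving out 1 library gave 211 to 1518 calls with stage, 29 (without postWT-STR) to 1834 at 13 weeks, 0 (without preWT-STR) to 444 at 8 weeks, 0 to 5 with WT age and 0 to 211 for the difference of changes. Of the 121 small RNA rows 27 had no count and 46 had 1 to 9 counts over all libraries, and at this depth a change of these was not tested or not detectable.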
